A study of Mus musculus with 2 samples.

Results

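A set of 137 long intergenic noncoding RNA (lincRNA) genes was expressed in neutrophils from mouse spleen, of 5844 genes whose transcripts are all of the lincRNA biotype and of 55450 genes in all. A gene was a member when its TPM (abundance per transcript length, scaled to the same sum in each library) was at least 1 in both libraries of the gene table. Neat1, Malat1, Gas5 and genes named Snhg or Mir were left out by name, which removed 7 of the 144 lincRNA genes at that level. The members were thus chosen by their TPM in both libraries of the gene table, and these levels are given below as a description, with no test.

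The data are total RNA-seq from primary neutrophils of adult male B6CASTF1/J mice aged 65 days, an F1 cross with a C57BL/6 dam and a CAST/EiJ sire. There is 1 group, for which the labels name no treatment and no altered gene, and it holds 2 libraries, each made with 300 ng of RNA as input and with ERCC spike-ins. The libraries are labelled biological replicates 1 and 2, with a biosample record each, but both carry the same donor identifier. Separate animals are therefore not shown by the labels, and the spread between the libraries may be technical in part. Replicate 1 held 18387963 expected counts and replicate 2 held 18090108. All 30 neutrophil marker genes examined were at 1 TPM or more in both libraries, and together they came to 46234 TPM in replicate 1 and 89399 in replicate 2. Of 44 markers of 11 other cell types, 19 reached 1 TPM in both libraries, and their summed level was 225 and 371 TPM. The natural killer cell markers Ncr1 and Gzma and the dendritic cell marker Xcr1 were at 0 in both, but the dendritic marker H2-Ab1 stood at 4.98 and 16.7 TPM. The other dendritic markers were lower, Flt3 at 1.04 and 1.51 TPM and Siglech at 0.02 and 0.15 TPM. The highest of the 44 by mean was the plasma cell marker Xbp1 at 56.0 and 66.3 TPM. On the same list Jchain stood at 11.3 and 23.6 TPM and Sdc1 at 0.27 and 1.22 TPM. Which cells these RNAs came from was not tested. The basophil marker Mcpt8 stood at 26.3 and 38.6 TPM and the erythroid marker Hba-a1 at 25.3 and 63.4 TPM.

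LincRNA genes are transcribed by RNA polymerase II between protein-coding genes, and their transcripts are capped, often spliced and mostly kept in the nucleus. Some act on the gene next door, some act elsewhere as scaffolds or decoys, some are the precursors of microRNAs, and for most no function is known. Many are removed by the nuclear RNA exosome, so their steady level is set by decay as well as by transcription. Among those known in neutrophils is Morrbid (Gm14005 in the annotation used here), which restrains the neighbouring death gene Bcl2l11 and so extends the life of short-lived myeloid cells.

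Several members lie on microRNA precursors or begin or end at one, and the mature sequences are shown first so that the microRNAs of these places can be told by their seeds. Each is written 5′ to 3′ from RefSeq (GRCm38.p6), with bases 2 to 8, the seed that pairs with target messages, in capitals.
mmu-let-7a-5p: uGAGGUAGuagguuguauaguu
mmu-let-7f-5p: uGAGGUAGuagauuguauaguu
mmu-let-7d-5p: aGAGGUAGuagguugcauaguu
mmu-miR-191-5p: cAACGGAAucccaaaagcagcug
mmu-miR-425-5p: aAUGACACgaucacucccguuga
mmu-miR-24-3p: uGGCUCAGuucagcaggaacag
mmu-miR-29b-3p: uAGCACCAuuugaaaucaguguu
mmu-miR-29a-3p: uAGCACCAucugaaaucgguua
The let-7 sequences share 1 seed, and so do the miR-29 sequences. The exons of 6720427I07Rik (chromosome 13, 48532905 to 48546500) hold the whole hairpins of let-7d, let-7f-1 and let-7a-1, and its level was 2.08 TPM in replicate 1 and 1.98 in replicate 2. The exons of 4833445I07Rik (chromosome 9, 108567533 to 108569174) hold those of miR-191 and miR-425, and its level was 1.93 and 1.76 TPM. An exon of 2900076A07Rik holds the miR-1839 hairpin, and its level was 7.12 and 8.85 TPM. Ftx, a gene of the X inactivation centre, holds the hairpins of miR-421 and miR-374b in an intron and stood at 1.9 and 2.54 TPM. The levels of these hosts differed little between the libraries, and mature microRNAs are too short to be read from these tables.

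The member Gm26532 (chromosome 8, 84208920 to 84209609, plus strand, 1 exon) begins where a microRNA hairpin ends. The hairpins of miR-23a, miR-27a and miR-24-2 lie just before it on the same strand, and its first 2 bases are the last 2 of the miR-24-2 hairpin. Gm27019 (chromosome 6, 31063092 to 31063495, minus strand, 1 exon) has the mirrored arrangement. Its last 2 bases are the first 2 of the miR-29b-1 hairpin, and miR-29a follows. The transcript ends are from GENCODE M21, with the shared bases in capitals.
first 40 bases of Gm26532: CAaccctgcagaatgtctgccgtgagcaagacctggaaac
last 40 bases of Gm27019: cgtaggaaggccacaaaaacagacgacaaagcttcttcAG
Gm26532 stood at 49.1 TPM in replicate 1 and 121 TPM in replicate 2, and only 3 members had a higher mean. The miR-24-2 hairpin entry itself was listed at 65.5 and 200 TPM, but these values rest on 10 and 26 counts over a length of 107 nt. Gm27019 stood at 2.56 and 5.14 TPM on 17 and 29 counts. Both levels were higher in replicate 2, as were the TPM values of 99 of the 137 members, both included. Gm27019 was not among the members that passed both limits in the comparison of the libraries below. The entries of the other hairpins named here held 0 counts in both libraries, and most are so short that their effective length is 0, which allows no statement on their level.

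Among the 137 members the median level was 2.94 TPM in replicate 1 and 3.21 TPM in replicate 2 (mean 3.08 ± 0.191, SD, n = 2). Protein-coding genes at 1 TPM or more in both libraries had a median of 11.8 ± 1.55 TPM. A mean between 1 and 2 TPM was found for 39 members, between 2 and 5 TPM for 53, between 5 and 10 TPM for 20 and between 10 and 50 TPM for 21. A single member, Gm26532, lay between 50 and 100 TPM and 3 lay above. The counts behind these levels had a median of 76 in replicate 1 and 71 in replicate 2, and went down to 5 and 8. For an effective length of 1 kb, 1 count corresponds to 0.0458 TPM in replicate 1 and 0.0538 in replicate 2. The deposited TPM interval of the gene table had its lower bound at 1 TPM or more in both libraries for 102 members. For the other members that interval reached below the level minimum in 1 or both libraries.

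**Figure D1:**
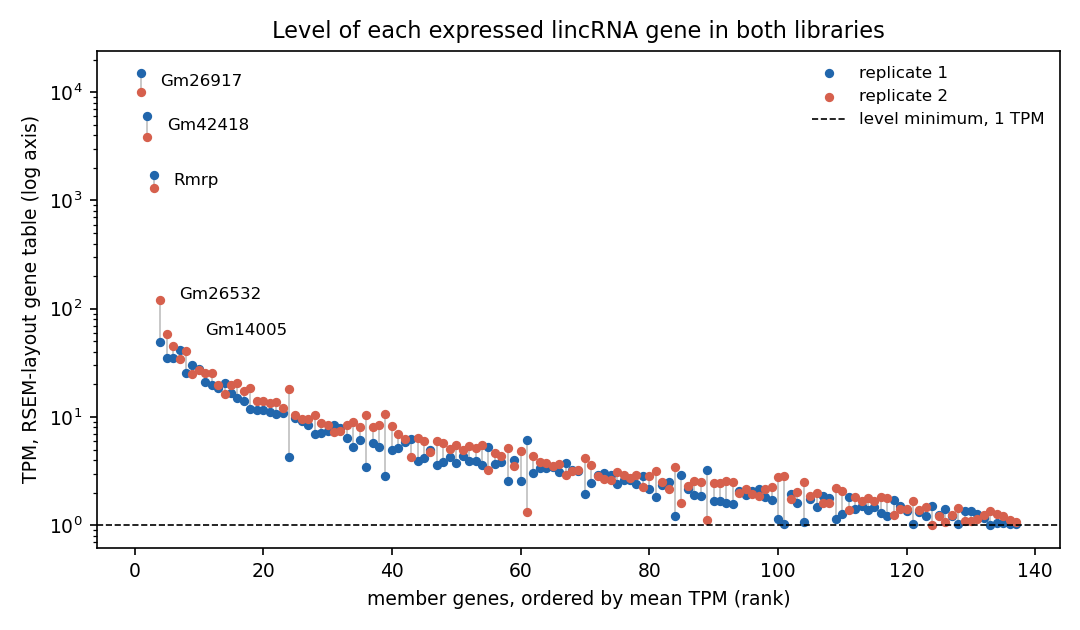
Level in TPM of each of the 137 member genes (log axis) against its rank by mean TPM, with replicate 1 in blue, replicate 2 in red, a grey line joining both and the level minimum of 1 TPM dashed. Gm26917, Gm42418 and Rmrp stand above 1000 TPM, and the next member, Gm26532, is at 49.1 and 121 TPM.

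Just inside the level minimum, Gm43848 stood at 1.00 and 1.36 TPM, Gm6712 at 1.51 and 1.01 TPM and Gm49602 at 1.02 and 1.11 TPM. Just outside it, Gm49756 stood at 0.98 and 1.15 TPM, Gm16001 at 1.32 and 0.97 TPM and E130102H24Rik at 0.97 and 1.34 TPM. The genes on both sides of the limit thus overlapped in level. Of all lincRNA genes, 4801 were at 0 TPM in both libraries.

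The highest members were not typical of the class. Gm26917 (ENSMUSG00000097971.3, chromosome 17, 39843013 to 39846341) stood at 14947 TPM in replicate 1 and 10097 TPM in replicate 2. Gm42418 (chromosome 17, 39846958 to 39848788), next to it on the same strand, stood at 6077 and 3845 TPM. RefSeq lists Gm42418 as Rn18s-rs5, a pseudogene related to 18S ribosomal RNA, and GENCODE has an rRNA entry, CT010467.1, across it on the opposite strand. AY036118, a lincRNA entry on that strand, was at 0 in both libraries. Gm26917 and Gm42418 were higher in replicate 1 in TPM. With counts scaled by the ERCC spike-in the log2 ratio of Gm26917 was -0.02, while Gm42418 stayed higher in replicate 1. Rmrp, the RNA subunit of the RNase MRP ribonuclease, was next at 1726 and 1316 TPM. Members took 5.6% of expected counts in replicate 1 and 3.44% in replicate 2, but 0.130% and 0.134% without these 3 entries. Gm26917 alone held 74.7% and 75.5% of the members' counts. Whether its reads, beside the entry related to 18S ribosomal RNA, come from ribosomal RNA was not tested.

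Rmrp shows how an annotation can split 1 RNA. The annotation holds a lincRNA entry of 281 nt, which is the member, and a ribozyme entry of 271 nt under the same symbol (chromosome 4, minus strand). They differ only at the ends, in capitals (GENCODE M21), where the lincRNA entry has 5 more bases on either side.
first 40 bases of the Rmrp lincRNA entry: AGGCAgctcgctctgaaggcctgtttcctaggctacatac
last 40 bases of the Rmrp lincRNA entry: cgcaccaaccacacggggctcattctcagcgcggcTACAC
By RSEM (the name used here for the gene table, after its column layout) the ribozyme entry stood at 4308 and 4145 TPM beside the member's 1726 and 1316 TPM. By kallisto (the second quantification, also named for its layout) the member stood at 844 TPM in replicate 1 and 4954 TPM in replicate 2, and the ribozyme entry at 7405 and 0 TPM. Both entries together gave 6034 and 5461 TPM in the gene table, and 8248 and 4954 TPM in the kallisto table. The split between the entries thus differed by quantification and by library, and the member's own level is not that of a separate RNA.

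The next members are RNAs of more usual levels. 2310001H17Rik (chromosome 6, 129208412 to 129238725) lies near Clec2d, a C-type lectin gene, and stood at 35.2 and 57.8 TPM. 1810058I24Rik (chromosome 6, 35252654 to 35263496) stood at 35.1 and 45.0 TPM and is listed by RefSeq as a protein-coding gene. Lncpint (chromosome 6, 31082565 to 31220488), a p53-regulated RNA that interacts with the Polycomb complex PRC2, stood at 41.5 and 34.3 TPM. 1700047M11Rik (chromosome 1, 182287990 to 182303325) stood at 28.0 and 27.1 TPM, and its start is divergent from that of Degs1, a sphingolipid desaturase gene, at 5186 nt. Gm20186 stood at 21.2 and 25.3 TPM. Gm13431, upstream of the cyclooxygenase gene Ptgs1 on the same strand, stood at 19.7 and 25.4 TPM. The values of 2310001H17Rik, 1810058I24Rik and Lncpint overlapped between the libraries, as did those of Gm20186 and Gm13431, so their order is not resolved.

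The list of immune and myeloid RNAs gave 3 members. Of the 20 symbols on that list 16 are in the tables, with 8 entries of lincRNA type only. Gm14005 (Morrbid, ENSMUSG00000074813.13, chromosome 2, 128178319 to 128502765, minus strand) stood at 25.3 TPM in replicate 1 and 40.5 TPM in replicate 2. Bcl2l11, which encodes the pro-apoptotic protein BIM and lies 15772 nt away in convergent orientation, stood at 43.0 and 46.7 TPM. By the exact binomial test on counts described below, the log2 ratio of replicate 1 to replicate 2 was -0.44 for Gm14005 (adjusted p = 0.00289) and -0.06 for Bcl2l11 (adjusted p = 0.407). Gm14005 was thus higher in replicate 2 by this test but not by the edgeR exact test given further on, and whether its ratio differs from that of Bcl2l11 was not tested. Ptgs2os2, also called lincRNA-Cox2 and known as a regulator of inflammatory genes in macrophages, stood at 1.84 and 2.16 TPM. Its neighbour Ptgs2, the inducible cyclooxygenase gene, stood at 11.97 and 13.97 TPM. The other member on the list is Gm20186, with the values above, and no immune role of it is shown here. Of the other lincRNA-only entries on the list, Ifngas1, Lncenc1 and Trp53cor1 (lincRNA-p21) were at 0 in both libraries, Pvt1 was at 0.37 and 0.19 TPM and F730311O21Rik at 1.01 and 0.92 TPM. Mirt1, at 117 and 102 TPM, is no member because 1 of its transcript types is a retained intron, and its symbol also starts with Mir.

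The start regions of Gm14005 and Ptgs2os2 are shown because these are the members with a known part in myeloid cells. Each runs from 250 bases before to 50 after the RefSeq start (GRCm38.p6) and is written on the gene's strand. The RefSeq start need not be the outermost GENCODE start. Letters are printed with matches to the motifs named further on in capitals.
Gm14005 start region, chr2:128429302-128429601, minus strand: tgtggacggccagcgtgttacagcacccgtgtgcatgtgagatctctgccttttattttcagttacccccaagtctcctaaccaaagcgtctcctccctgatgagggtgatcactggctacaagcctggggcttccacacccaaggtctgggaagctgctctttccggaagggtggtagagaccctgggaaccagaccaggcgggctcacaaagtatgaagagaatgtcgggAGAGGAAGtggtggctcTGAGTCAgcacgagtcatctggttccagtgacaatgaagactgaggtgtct
Ptgs2os2 start region, chr1:150164899-150165198, minus strand: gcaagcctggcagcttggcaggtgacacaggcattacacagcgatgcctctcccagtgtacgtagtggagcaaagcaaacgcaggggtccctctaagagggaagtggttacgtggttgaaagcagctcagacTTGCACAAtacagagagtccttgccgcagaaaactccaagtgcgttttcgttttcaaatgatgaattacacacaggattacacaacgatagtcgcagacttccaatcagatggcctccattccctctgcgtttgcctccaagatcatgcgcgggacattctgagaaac
The first holds a match to the PU.1 motif AGAGGAAG and 1 to the AP-1 motif TGANTCA, and the second a match to the C/EBP motif TTGCNNAA. PU.1 and C/EBP proteins are the main transcription factors of granulocytes. A match of letters is a description and not a bound site.

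Nuclear and chromatin-bound RNAs gave 2 members, Lncpint and Ftx, of 11 lincRNA-only entries on that list. Xist, the RNA that coats the inactive X chromosome, was at 0.01 and 0.05 TPM in these males, and Jpx, its neighbour, at 0.58 and 0.81 TPM. H19, Mirg, Hotair, Hottip and Miat were at 0 in both libraries, and Meg3 was at 0.08 and 0.09 TPM. Widely expressed RNAs gave 6 members of 7 lincRNA-only entries. They are Gm26917, Gm42418, Rmrp, 2900097C17Rik, Epb41l4aos and 5430416N02Rik, and the seventh entry is AY036118. 2900097C17Rik is Norad, which binds Pumilio proteins and guards chromosome stability, and it stood at 30.1 and 25.2 TPM. Epb41l4aos stood at 3.61 and 5.50 TPM, and 5430416N02Rik at 3.26 and 3.19 TPM. By kallisto, the second quantification, Epb41l4aos stood at 5.03 and 8.95 TPM, 5430416N02Rik at 5.16 and 6.57 TPM, and Ftx at 4.22 and 4.12 TPM. These lists were written with other results of these data known, so their counts are no independent evidence on the class. Of 18 genes of the RNA exosome and its adaptors 17 were at 1 TPM or more in both libraries, with a median of 8.28 and 9.76 TPM. The exception was the core subunit Exosc6 at 1.33 and 0.22 TPM. By kallisto Exosc6 was at 0 in both libraries, so its level is not resolved.

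Members that carry a name of their own were few. There were 76 members with a Gm number, 36 with a Rik clone name, 13 with an accession or clone name and 12 with a named symbol. Gdap10, on the strand of Nampt and overlapping it, stood at 7.45 and 8.46 TPM. Ino80dos, antisense to the chromatin remodelling gene Ino80d, stood at 6.2 and 4.31 TPM. Dubr stood at 4.30 and 5.09 TPM, Tmem250-ps at 3.87 and 4.36 TPM, Platr7 at 2.15 and 2.31 TPM and Platr1 at 1.72 and 1.24 TPM. Lockd, which starts 3579 nt downstream of the cell cycle inhibitor gene Cdkn1b on the same strand, stood at 3.92 and 5.22 TPM beside 34.5 and 44.4 TPM for Cdkn1b. None of these reached the level of the 12 highest members.

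RefSeq holds 78 of the members by symbol or synonym. It calls 66 of them long noncoding RNA, 8 protein-coding, 3 pseudogenes and 1, Rmrp, an RNase MRP RNA. The lincRNA biotype that chose the members is thus not shared by all current annotation.

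Members sat close to protein-coding genes. The gap between gene bodies (0 where they overlap) was 5 kb or less for 68 of 137 members (49.6%) and for 21.03% of the 5692 other lincRNA genes. The median gap was 5186 nt for members and 45924 nt for the others. Of the 68, 18 overlapped the coding gene, 12 on the same strand and 6 on the opposite strand. Another 17 were divergent, 17 lay downstream on the same strand, 8 lay upstream on the same strand and 8 were convergent. Downstream neighbours on the same strand made up 12.4% of members and 2.21% of other lincRNA genes. Overlap on the same strand made up 8.76% and 1.35%. Position was not used to choose the members, and these shares and those on length and exons below are descriptions over genes, with no test. In addition, annotated length and overlap affect how reads are counted, and reads that run past the end of a coding gene were not told apart from a separate RNA. That part was not tested.

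**Figure D2:**
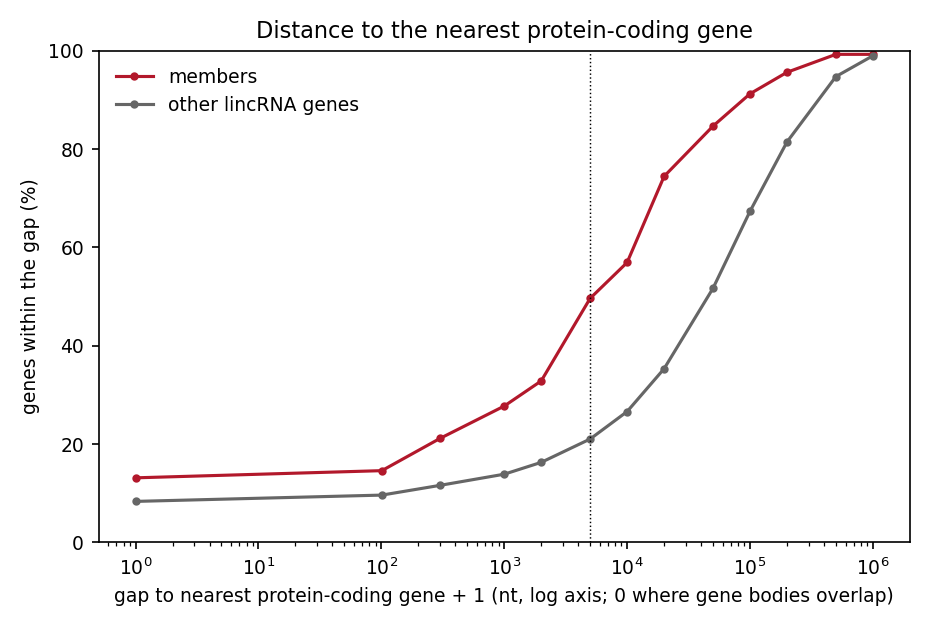
Percent of genes whose gap to the nearest protein-coding gene is at most the value on the x axis (nt plus 1, log axis), for the 137 members (red) and the other lincRNA genes (grey), with 5 kb dotted. At 5 kb the members are at 49.6% and the others at 21.03%.

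The coding neighbour was usually active too. The nearest protein-coding gene was at 1 TPM or more in both libraries for 101 members (73.7%), for 41.8% of the other lincRNA genes and for 43.4% of all protein-coding genes. Its median level was 11.3 and 13.1 TPM for members, against 0.23 and 0.25 TPM for the others. Across the 137 pairs the levels had a Spearman rho of -0.05 and a Pearson r of -0.16 on log2(TPM + 0.1). The log2 ratios between the libraries, known for both genes in 108 pairs, had a rho of 0.22 and an r of 0.20. The pairs share the libraries, and genes are not independent replicates. None of the members lay within 5 kb of a gene on the neutrophil marker list.

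A start within 1 kb of the start of a protein-coding gene on the opposite strand was found for 13 members (9.49%) and for 5.29% of the other lincRNA genes. 5031425E22Rik starts 172 nt from the histone methyltransferase family gene Kmt2e and stood at 11.2 and 13.4 TPM, with Kmt2e at 43.4 and 48.9 TPM. Gm17586 starts 168 nt from the small Maf factor gene Mafg and stood at 6.07 and 8 TPM, with Mafg at 47.2 and 53.7 TPM. Gm7160 starts 124 nt from Zcchc2 and stood at 4.94 and 8.19 TPM, with Zcchc2 at 17.18 and 18.02 TPM. In these 3 pairs the coding gene was the higher one in both libraries. AC025794.1 was the other way round, at 5.86 and 6.22 TPM beside 0.06 and 0.19 TPM for the muscarinic receptor gene Chrm1, whose start is 454 nt away. So was Gm20186 by RSEM, at 21.2 and 25.3 TPM beside 9.75 and 12.7 TPM for Lsm8, a spliceosomal Sm-like protein gene 372 nt away. The Rmrp entry starts 163 nt from Ccdc107, which overlaps it on the opposite strand and stood at 1.58 and 1.92 TPM.

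Members were longer and more often unspliced than the rest of the class. The median exonic length was 1815 nt for members and 1017 nt for other lincRNA genes. Transcripts of 1 exon only were annotated for 28 members (20.4%) and for 5.08% of the others. Single-exon members had a median of 3.26 TPM and the 109 others a median of 3.19 TPM, so level did not separate them. Of the 28, 7 lay within 5 kb downstream of a coding gene on the same strand, beside 10 of the 109. Map3k9, for instance, is followed after 958 nt by Gm49654 at 9.13 and 9.54 TPM, and Tlr5, a flagellin receptor gene, after 232 nt by Gm38079.

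Start regions could be read for 56 members that RefSeq lists as long noncoding RNA, in 62 windows of 300 bases. Their GC content had a median of 51.3%, beside 48.3% for all 11588 lncRNA windows and 56.3% for all 21262 protein-coding windows. The ratio of observed to expected CG dinucleotides was over 0.6 in 24 windows (38.7%), beside 14.0% of all lncRNA and 47.6% of all protein-coding windows. The highest members spanned this range, as 2 windows with CG in capitals show.
Lncpint start region, chr6:31218425-31218724, minus strand: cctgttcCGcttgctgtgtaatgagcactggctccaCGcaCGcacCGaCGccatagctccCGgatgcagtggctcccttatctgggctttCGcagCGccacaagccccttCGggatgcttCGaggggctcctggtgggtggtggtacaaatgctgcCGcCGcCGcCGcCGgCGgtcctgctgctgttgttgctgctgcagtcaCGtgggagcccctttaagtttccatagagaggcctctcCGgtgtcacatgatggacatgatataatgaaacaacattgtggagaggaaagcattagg
1700047M11Rik start region, chr1:182300584-182300883, plus strand: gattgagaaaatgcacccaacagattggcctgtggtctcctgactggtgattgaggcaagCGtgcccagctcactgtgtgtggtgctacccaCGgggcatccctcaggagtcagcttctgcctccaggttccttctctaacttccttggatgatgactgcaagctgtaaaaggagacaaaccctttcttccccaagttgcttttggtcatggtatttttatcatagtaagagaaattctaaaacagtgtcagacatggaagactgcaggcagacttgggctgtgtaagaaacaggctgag
The Lncpint window holds 18 CG and the 1700047M11Rik window 2, while the genes stood at 37.9 ± 5.11 and 27.5 ± 0.636 TPM (SD, n = 2). Both windows lie within the GENCODE spans of their genes given above, so neither holds the outermost annotated start. The levels are of the whole genes and not of transcripts from these starts. Motifs were searched on both strands, and shares are of windows of members, then of all 32851 windows. TATAAA was in 12.9% and 13.6%, PU.1 AGAGGAAG in 4.84% and 4.55%, C/EBP TTGCNNAA in 17.7% and 10.8%, and NF-kB (GGGA and CC with 4 bases of any kind between) in 30.6% and 20.7%. CRE TGACGTCA was in 1.61% and 1.79%, and AP-1 TGANTCA in 9.68% and 7.81%. A match to CRE cannot overlap one to AP-1 by their letters, while matches to the other motifs may overlap. The member windows number 62, so a share of 1.61% is 1 window. Genes with more than 1 window count more than once. Ino80dos and Gm19705 each have overlapping windows, all with a C/EBP match.

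The quantifications placed most members alike. Reads that match several transcripts are divided by each program in its own way, and genes over 2-fold apart in the same direction in both libraries were counted on log2(TPM + 0.1). By kallisto 15 members (10.9%) were higher, beside 1.15% of the 11068 genes at 1 TPM or more. By RSEM 4 members (2.92%) were higher, beside 3.42% of those genes. Of protein-coding genes at that level 106 (1.11%) were apart in either direction. The RSEM level chose the members, which bears on both shares. At 1 TPM or more in both libraries by kallisto there were 359 lincRNA genes, of which 125 are members. Of the 234 that are not, 112 were at 0 TPM in both libraries by RSEM.

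**Figure D3:**
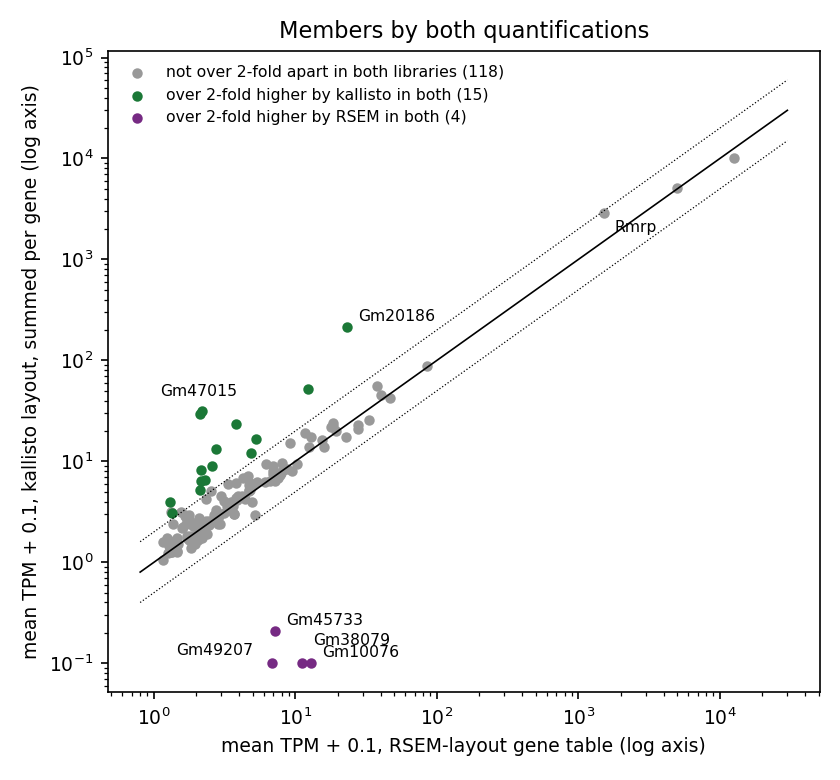
Mean TPM plus 0.1 of each of the 137 members by RSEM (x) and by kallisto (y), both on log axes, with equality as a solid line and 2-fold as dotted lines. The 15 green genes lie above the upper dotted line, and the 4 purple genes lie at or near 0 by kallisto.

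The 4 members higher by RSEM had 1 exon each, and 3 of them share most of their sequence with other genes. Gm10076 stood at 11.5 and 14.2 TPM by RSEM and at 0 in both libraries by kallisto. RefSeq lists it as a pseudogene, and 84.2% of its 31-base words occur in other genes, mostly in Rpl41, which encodes a very short ribosomal protein. Bases 42 to 119 of Gm10076 are identical to the whole Rpl41 coding sequence of 78 bases with its stop codon.
Rpl41 coding sequence and Gm10076 (GENCODE M21): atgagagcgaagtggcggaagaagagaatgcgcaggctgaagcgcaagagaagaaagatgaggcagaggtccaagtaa
Rpl41 itself stood at 369 and 569 TPM in the gene table, beside 466 and 836 TPM by kallisto, and the 71.5 and 74.8 expected counts of Gm10076 stood beside 2783 and 3644 for Rpl41. Gm49207 stood at 2.84 and 10.6 TPM by RSEM and at 0 by kallisto, and 83.1% of its words occur in other genes, led by Ahsa1. Gm45733 stood at 5.27 and 8.94 TPM by RSEM and at 0.216 and 0 TPM by kallisto, and 80.1% of its words are shared, led by Baz2a. Gm38079 (chromosome 1, 182976276 to 182976429) is 154 nt long and shares no word, and stood at 4.24 and 17.9 TPM by RSEM on 5 and 18 counts and at 0 by kallisto.

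Members higher by kallisto all had more than 1 exon. Gm47015 stood at 1.69 and 2.48 TPM by RSEM and at 29.1 and 34.5 TPM by kallisto. AC166748.2 stood at 1.91 and 2.14 TPM by RSEM and at 23.7 and 35.6 TPM by kallisto. Gm20186 stood at 197 and 233 TPM by kallisto, 9.29 and 9.22 times its RSEM level. Over all 15 the kallisto level was 2.33 to 17.2 times the RSEM level. Gm4316 stood at 19.9 and 27.3 TPM by kallisto and Gm46430 at 13.0 and 13.3 TPM, each over 2-fold above its RSEM level. AC158975.2 stood at 10.7 and 13.7 TPM by RSEM and at 37.8 and 65.2 TPM by kallisto, and 90.2% of its words occur in other genes on the same strand. Over 50% of the words were shared with other genes, on either strand, for 6 of the 15, and under 5% on both strands for 5. Sequence sharing was thus high in some of these genes and low in others. In 80.5% of its words Gm20186 matches other genes on the opposite strand, and AC166748.2 shares 1.93% on its own strand and none on the other.

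Most members had counts with no read divided between genes. Expected counts were whole (within 0.01) in both libraries for 115 members (83.9%) and for 84.5% of protein-coding genes at the level. All 14 members with over 50% of their words in other genes had counts that were not whole, and all 93 with under 5% had whole counts. Norad is in between. Of the 42 successive windows of 60 bases of Gm7292, itself a member at 3.79 and 5.55 TPM, 40 are found in the Norad entry 2900097C17Rik with at most 6 differences. The window at its middle has none.
Gm7292 and 2900097C17Rik (GENCODE M21): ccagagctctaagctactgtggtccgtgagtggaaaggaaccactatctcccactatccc
By kallisto Norad stood at 18.7 and 22.7 TPM and Gm7292 at 4.15 and 5.97 TPM, so the order of both was the same by either quantification.

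Most members had a single transcript, 71 of 137. Of the 66 with several, 45 had the same leading transcript, the one with the highest mean TPM, by both quantifications. In these the leading transcript took a median of 73.5% and 71.5% of the gene by kallisto. 1810058I24Rik-201 led its gene with 87.4% and 86.9% by RSEM and 90.0% and 93.3% by kallisto. Gm14005-204 led with 65.6% and 65.0% by RSEM but 17.6% and 47.3% by kallisto. Lncpint, with 16 annotated transcripts, was led by Lncpint-211 at 21.03% and 23.6% by RSEM and by Lncpint-213 at 26.1% and 28.3% by kallisto. For Lockd, Dubr, Ftx and 2310001H17Rik the leading form also differed between the quantifications.

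The libraries were compared with each other, since the study has no second group. The exact two-sided binomial test was run on rounded expected counts, given library sizes scaled by TMM, for the 15118 genes whose counts in both libraries add up to 10 or more. P-values were adjusted by Benjamini-Hochberg over all of them. The test compares these 2 libraries, covers counting error only and says nothing of conditions. Of 137 members 30 (21.9%) passed an adjusted p of 0.05, 15 in each direction, beside 32.1% of all genes tested. With at least 2-fold asked as well, 2 members (1.46%) were higher in replicate 1, beside 3.02% of all genes. Another 7 members (5.11%) were higher in replicate 2, beside 2.86%. Scaled by ERCC counts, which moved all log2 ratios by -0.74, the numbers were 2 and 33, together 35 of 137 members beside 3486 of all 15118 genes. The median absolute log2 ratio was 0.26 for members and 0.24 for all genes tested.

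**Figure D4:**
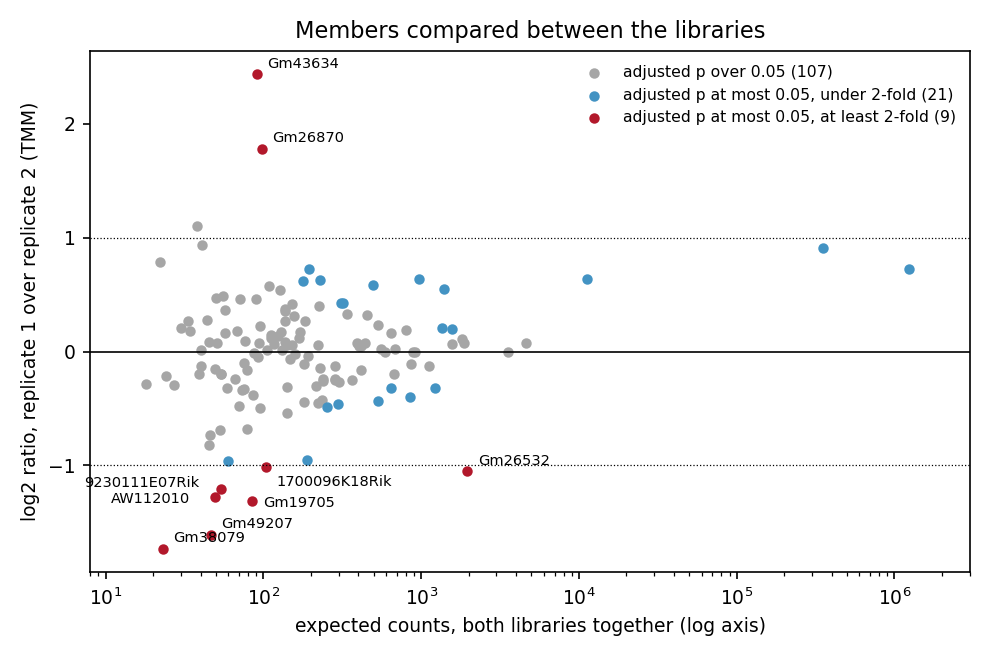
Log2 ratio of replicate 1 to replicate 2 for each of the 137 members against its expected counts in both libraries together (log axis), with 2-fold dotted and colours for the adjusted p of the binomial test and the fold. The 9 red genes pass both limits, 2 above and 7 below 0.

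Gm26532, the RNA after the miR-24-2 hairpin, had 632 counts in replicate 1 and 1328 in replicate 2, the largest count among these 9. Its log2 ratio was -1.05 (binomial adjusted p = 3.2e-53, higher in replicate 2). Gm19705 had 24 and 61 counts, a log2 ratio of -1.31 (adjusted p = 4.66e-04). 1700096K18Rik had 34 and 70 counts, a log2 ratio of -1.01 (adjusted p = 0.00273). 9230111E07Rik, for which Cebpb, encoding a granulocyte transcription factor, is the nearest coding gene at 91635 nt, had 16 and 38 counts and a log2 ratio of -1.21 (adjusted p = 0.0151). AW112010, a gene induced by interferon, had 14 and 35 counts and a log2 ratio of -1.28 (adjusted p = 0.0149). Gm49207 and Gm38079 complete the 7 and are the short entries at 0 by kallisto.

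Higher in replicate 1 were Gm26870 and Gm43634. Gm26870 (chromosome 9, 3000282 to 3038313) had 76 and 22 counts, a log2 ratio of 1.78 (binomial adjusted p = 2.34e-07), and 75.2% of its words occur on the opposite strand of other genes. Gm43634 lies within Cracr2a on the same strand, shares 98.8% of its words with other genes, and had 77.0 and 14.1 expected counts, a log2 ratio of 2.43 (adjusted p = 7.45e-11). With Cracr2a added the counts were 1241 and 1028, so that most of the reads of the pair were assigned to Cracr2a. AW112010 and Gm43634 are named here after their values were seen.

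When the spread between the libraries over all genes entered as a dispersion (edgeR exact test, biological coefficient of variation 0.187), 1 of the 9 kept an adjusted p under 0.05. That was Gm43634 (adjusted p = 0.00211), whose reads are shared with Cracr2a, and Gm26870 had an adjusted p of 0.0502 and Gm26532 one of 0.262. By that test 188 of all genes passed both limits. Some summed marker levels moved with the libraries as well, and others did so little or in the other direction. The summed B cell markers stood at 4.49 TPM in replicate 1 and 17.4 in replicate 2, the erythroid markers at 45.3 and 114 TPM and the neutrophil markers at 46234 and 89399 TPM. Their part in these ratios was not tested, and in bulk RNA fewer cells of a type and less RNA per cell cannot be told apart.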

How the data were processed

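Members and lists were chosen with earlier results of these data known. Per the files' accompanying notes, the authors derived the gene table and a first transcript table (layout of RSEM) from transcriptome alignments and a second transcript table (layout of kallisto) from the FASTQ files, with mm10 and GENCODE M21. Which programs and aligner were run is not given in those sources, and per the labels a directional kit was used. The deposited gene table holds expected counts, TPM per effective length over all entries, and FPKM, used as an alternative. The second table's deposited estimated counts and TPM were summed per gene.

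Lengths, exons, gaps and shared 31-base words were taken from GENCODE M21, and start regions, microRNAs and gene types from RefSeq (GRCm38.p6). Library sizes came from edgeR 4.0.16 (TMM) and DESeq2 1.42.0 (median of ratios) in R 4.3.3, and the binomial test, checked on simulated data, from scipy 1.17.1 on rounded counts, with 0.5 added in ratios. Each library's own counts limit precision, and the binomial test covers counting error alone, as no molecular identifiers are named and reads may be copies of 1 molecule.

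Named genes were the 12 highest members, the called members with whole counts and at least 50 counts, up to 6 per direction that were apart between the quantifications, members on the lists, up to 20 named symbols, 3 genes on either side of the level minimum, and up to 6 with a start within 1 kb of a coding gene's start on the opposite strand. MicroRNA hosts, further neighbours and any other gene were named after their values were seen. Of the genes this rule names, 1 pair is not reported here.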

Additional observations from a re-analysis of the deposited data

How the results depend on the processing

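For counts of members and their median level, alternatives not named here stayed within 1.5 times the reported count or within the spread of the libraries. For the 43 named members, 104 levels under an alternative moved by less than that spread and 68 by more. Of their log2 ratios between the libraries 236 stayed on the same side of the threshold, 30 passed it anew and 20 no longer passed it. Another 7, which passed in the main setting, turned in direction. Turns of ratios that had not passed were not counted apart and are among the 236 or the 30. The number of member genes was 81 at 2 TPM, 359 by kallisto TPM and 223 with TPM rescaled to protein-coding genes, and 156 to 173 with either library alone. The median level was 3.95 TPM by kallisto and 8.01 TPM after that rescaling. Among members with whole counts 9 were apart between the quantifications, in place of 19, and with either library alone 21 to 27 were. The leading transcript was the same in 43 to 49 members with either library alone. At 1 kb in place of 5 kb, 38 members lay near a protein-coding gene. Chosen after seeing the data, the share of counts without Gm26917, Gm42418 and Rmrp and the restriction to members with whole counts, of which 58 lay within 5 kb, were added. Scaling by ERCC counts moved all log2 ratios by -0.74, and then 35 of 137 members and 3486 of 15118 genes passed both limits, 2 higher in replicate 1 and 33 in replicate 2. The edgeR exact test left 1 of 9, and 11 members had an unadjusted p under 0.05 by it. Estimated counts of kallisto gave 11 of 132 members tested, of which 5 are among the 9, beside 1387 of 19305 genes. Only ratios that passed in the main setting are listed as turned relative to zero. ERCC scaling turned those of Gm26917 (-0.016), Rmrp (-0.10), Lncpint (-0.20), 1700047M11Rik (-0.55), Ino80dos (-0.11) and Platr1 (-0.020), and kallisto counts turned that of Rmrp (-2.48). Smaller positive ratios of named members that had not passed also turn under the ERCC shift and are not listed. The cause was not tested. No paired analysis was possible because there is only 1 group. Levels near 1 TPM rest on few counts in short genes, and without replicates from separate donors shown by the labels no error rate for animals can be given.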
